A study of Mus musculus with 6 samples.

Results

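The 9 genes described here are noncoding host genes of small nucleolar RNAs (snoRNAs), Gas5, Snhg1, Snhg3, Snhg5, Snhg6, Snhg8, Snhg12, Snhg15 and Zfas1. They were chosen by name and are 9 of the 55291 genes in the count table. All 9 were among the 14290 genes with enough reads to be tested. The measurements came from polyA RNA-seq of wild type mouse embryonic fibroblasts (MEFs), with 2 libraries in each of 3 groups. The groups were Vehicle, MASM7, a small molecule activator of the mitochondrial fusion proteins mitofusin 1 and 2, given at 1 µM for 6 h, and MFI8, an inhibitor of the same proteins, given at 20 µM for 6 h. The paper lists the wild type MEFs among its cell lines, as cells provided by another laboratory. The 2 libraries of a group are therefore not known to stand for separate embryos. The sources used here do not say how long the Vehicle cells were treated or how old the embryos were. The 2 compounds were used at different concentrations, so compound and concentration cannot be told apart. All groups share the wild type genotype, and the libraries of a group are described as independent biological replicates.

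A snoRNA host gene is transcribed and spliced like any other gene, and the snoRNAs are trimmed out of its introns. The snoRNAs then guide ribose methylation (box C/D) or pseudouridylation (box H/ACA) of ribosomal RNA. The spliced host RNA of a noncoding host has short reading frames, is exported and bound by ribosomes, and is degraded by nonsense-mediated decay, a pathway that needs translation. These hosts are therefore known to accumulate when translation is slowed, and Gas5 takes its name from its accumulation in growth-arrested fibroblasts. Many hosts also start with a run of pyrimidines, the terminal oligopyrimidine (TOP) element shared with ribosomal protein genes.

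The start regions of these genes are shown because this element links the hosts to translation. RefSeq start windows were found for 8 of the 9 genes, Snhg6 having none in the table used. The search was for a C followed by at least 4 pyrimidines, beginning within 10 bases of the annotated start on the transcribed strand. It was present in 5 of the 8 genes and in 5 of their 9 windows, beside 30.7% of all 32851 windows. The windows run from 50 bases before to 50 bases from the start in GRCm38.p6, 5′ to 3′ on the transcribed strand. Capitals mark the pyrimidine run in Gas5 (chr1:161035116-161035215, plus strand), Snhg3 (chr4:132353637-132353736, minus strand), Snhg5 (chr9:88522848-88522947, minus strand), Snhg8 (chr3:123508287-123508386, minus strand) and Snhg12 (chr4:132308628-132308727, plus strand), and also TATAAA in Snhg5 and Snhg8. Snhg1 (chr19:8723437-8723536, plus strand) is shown as a window without such a run.
Gas5: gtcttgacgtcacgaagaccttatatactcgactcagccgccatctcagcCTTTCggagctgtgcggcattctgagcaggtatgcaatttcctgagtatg
Snhg3: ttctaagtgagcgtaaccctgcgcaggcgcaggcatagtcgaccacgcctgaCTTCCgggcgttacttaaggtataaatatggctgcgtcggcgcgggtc
Snhg5: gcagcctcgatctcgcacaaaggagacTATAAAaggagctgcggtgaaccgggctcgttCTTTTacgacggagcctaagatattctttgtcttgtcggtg
Snhg8: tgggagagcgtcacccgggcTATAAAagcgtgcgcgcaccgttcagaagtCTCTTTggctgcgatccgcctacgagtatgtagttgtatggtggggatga
Snhg12: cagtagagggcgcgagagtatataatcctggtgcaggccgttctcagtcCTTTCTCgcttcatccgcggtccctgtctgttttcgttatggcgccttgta
Snhg1: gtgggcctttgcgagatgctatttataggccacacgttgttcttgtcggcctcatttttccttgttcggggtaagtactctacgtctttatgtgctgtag

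Where a match could begin at more than 1 C, the C nearest to the start was taken, and in Gas5 and Snhg12 the base before the capitals is also a C. Taken so, the run began at the annotated start in Gas5 and Snhg8 and 1 base before it in Snhg12. Gas5 has 2 windows in RefSeq, and the other one, upstream, held no run. TATAAA was searched 45 to 15 bases before the start on the transcribed strand. It was present in 2 of the 8 genes, Snhg5 and Snhg8, and in 2 of the 9 windows, beside 2.14% of all windows. A missing match says only that these letters were not in this window.

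Reading frames were read in 1 spliced transcript per gene (GENCODE vM21, GRCm38), the first by name without a retained intron. The first reading frame from an ATG ran from 1 codon in Snhg8 to 54 codons in Snhg12. The longest frame from any ATG ran from 20 codons in Snhg3 to 79 in Zfas1, with 66 in Snhg5 and 59 in Snhg15. The stop codon of the first frame lay more than 50 bases upstream of the last exon junction in 7 of the 9 genes. This is the arrangement that nonsense-mediated decay is known to recognise. The exceptions were Snhg15, at 49 bases, and Snhg3, whose first stop codon lay after the last junction. How often other genes have this arrangement was not counted.

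Gas5 and Snhg6 lie on chromosome 1, Snhg3 and Snhg12 on chromosome 4, and the other genes on a chromosome each. In GRCm38 they span chr1:161034422-161038539 (Gas5, plus strand), chr19:8723475-8726443 (Snhg1, plus), chr4:132348014-132353686 (Snhg3, minus), chr9:88521050-88522929 (Snhg5, minus), chr1:9941959-9944118 (Snhg6, minus), chr3:123507552-123508404 (Snhg8, minus), chr4:132308623-132311024 (Snhg12, plus), chr11:6525591-6528760 (Snhg15, minus) and chr2:167062934-167065862 (Zfas1, plus). The annotation places 31 snoRNA loci inside them on the same strand, 9 in Gas5, 8 in Snhg1, 4 in Snhg12, 3 in Zfas1, 2 each in Snhg3 and Snhg5, and 1 each in Snhg6, Snhg8 and Snhg15.

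Of the 30 snoRNA rows in the table, 4 had any counts in these polyA libraries. Snora73a and Snora73b, the box H/ACA snoRNAs of Snhg3 that act in processing of the small-subunit rRNA, summed to 82 and 81 counts in Vehicle, 114 and 113 in MASM7 and 94 and 119 in MFI8. Snord87 in Snhg6 had from 13 to 28 counts a library, and Gm23201 in Zfas1 from 70 to 95. All other snoRNA rows were listed at 0 in every library. Of the 31 loci, 28 lie wholly inside annotated exons of the host, and Gm23201 was the only one of these with counts. The 3 loci that do not, Snora73a, Snora73b and Snord87, all had counts. A listed 0 therefore does not show that a snoRNA was absent, since how reads shared by host and snoRNA were counted is not given in the sources used here. Whether the host counts below include reads from the snoRNAs or their introns was not tested.

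Library totals ran from 22791792 to 30677751 counts, and both MASM7 libraries, at 29881032 and 30611501, were deeper than both Vehicle libraries, at 22924037 and 25068530. The fibroblast markers Col1a1, Vim and Fn1 were high in every library, at 1106 to 1435, 1966 to 2531 and 342 to 436 TPM (a level scaled for gene length and library depth). Thy1, another marker of fibroblasts, was at 0.283 to 0.751 TPM. Cd3e and Kdr, markers of T cells and endothelium, were at 0 in every library, Ptprc, the pan-leukocyte marker, reached at most 0.013 TPM and Cd68, a macrophage marker, was at 8.91 to 11.9 TPM. The 9 host genes together took 0.0794% to 0.0863% of the counts of a library.

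By level per length, Snhg1, host of a set of box C/D snoRNAs, was the highest of the 9 in Vehicle, at 279 ± 3.52 TPM (SD, n = 2). Gas5 followed at 225 ± 6.47 TPM and Snhg8 at 221 ± 20.5 TPM. The ranges of Gas5 and Snhg8 overlapped, so their order was not separated by the spread between libraries. Zfas1 was at 154 ± 13.8 TPM, Snhg3 at 111 ± 9.94 TPM, Snhg15 at 89.9 ± 3.10 TPM and Snhg6 at 82.9 ± 1.28 TPM. Snhg5 at 66.8 ± 2.54 TPM and Snhg12 at 52.2 ± 3.84 TPM were the lowest. Apart from Gas5 and Snhg8, neighbours in this order did not overlap among the Vehicle libraries. Over all 6 libraries, Snhg3 overlapped Snhg15, and Snhg6 overlapped Snhg5.

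**Figure D1:**
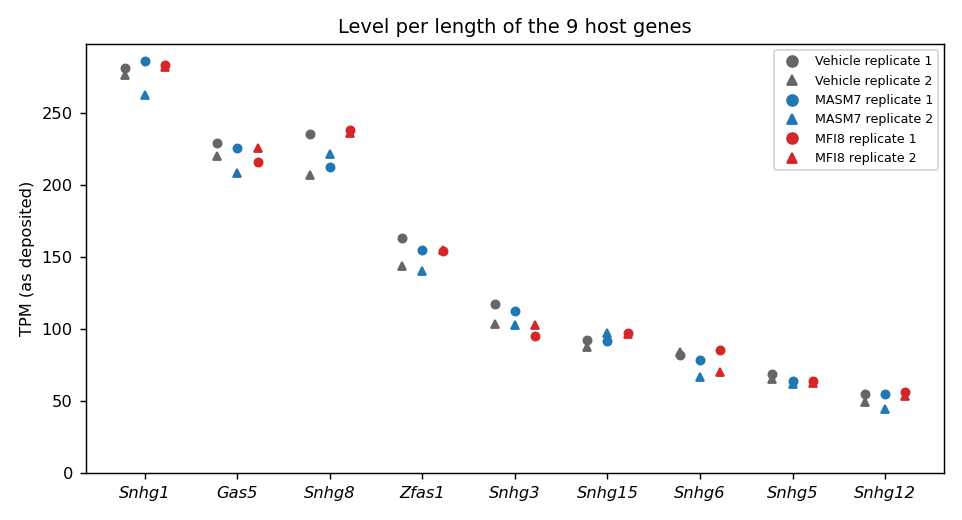
TPM as deposited (vertical axis, from 0) of the 9 host genes in order of their Vehicle mean, with 1 point per library, circles for replicate 1, triangles for replicate 2 and colours for the groups. Snhg1 lay at 262 to 286 TPM in all 6 libraries and Snhg12 at 44.5 to 56.5 TPM, and the groups lay close together in each gene.

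This order depended on the gene length behind the TPM. The lengths implied by the deposited counts and TPM matched the summed exons of GENCODE vM21 in 6 of the 9 genes, and those exons include retained introns, for example 3760 bases for Gas5 where a spliced transcript has 665. In Snhg5, Snhg15 and Zfas1 the implied lengths were 3634, 2652 and 1901 bases, against 1730, 1359 and 2929 in vM21. Taken per kilobase of 1 spliced transcript, a scale added after the data were seen, the Vehicle level in CPM, which are counts scaled to library depth alone, was 474 for Snhg1, 359 for Gas5, 164 for Snhg15, 119 for Snhg8 and 112 for Zfas1. On that scale Snhg15 ranked above Snhg8, Zfas1 and Snhg3, Snhg5 at 68.4 CPM per kilobase ranked above Snhg6 at 41.0, and Snhg12 was again the lowest at 29.2 CPM per kilobase. Length does not enter the comparisons between groups below.

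The comparison of MFI8 with Vehicle asks whether blocking the mitofusins moved these RNAs, which rise when translation slows. None of the 9 passed the test (edgeR quasi-likelihood test, Benjamini-Hochberg adjusted p under 0.05 over all 14290 genes), and none was under an unadjusted p of 0.05. Among all genes tested, 0% passed the adjusted threshold and 9.86% were under the unadjusted one. When the replicate number was added to the edgeR model as a block, 720 genes passed, none of them a host gene. Snhg3 was then under an unadjusted p of 0.05, beside 18.6% of all genes. By DESeq2, 0 of the 9 passed, beside 0.368% of the 13049 genes given an adjusted p. Under an unadjusted p of 0.05 were 0 of the 9, beside 2.86% of 26760 genes, a larger set with no filter on low counts. The log2 fold change was above 0 in 3 host genes and below 0 in 6, with a median of -0.018 beside 0.0027 over all genes tested. The 95% interval of every host gene held 0, and the highest upper bound, that of Snhg12, was 0.28, a 1.22-fold rise.

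Gas5, the host with the most snoRNAs of this set, was at 245 and 233 CPM in Vehicle, 242 and 225 CPM in MASM7 and 226 and 236 CPM in MFI8. Every group overlapped every other. Its log2 fold change was -0.05 in MFI8 (SE 0.058, 95% interval -0.18 to 0.08, adjusted p = 0.814 by edgeR) and -0.03 in MASM7 (SE 0.058, interval -0.16 to 0.10). The MFI8 value was -0.0093 without Vehicle replicate 1 and -0.088 without Vehicle replicate 2.

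Snhg1 was at 238 and 231 CPM in Vehicle, 242 and 223 CPM in MASM7 and 234 and 233 CPM in MFI8. The MFI8 libraries lay between the Vehicle libraries, and the MASM7 libraries lay on either side of them. Its log2 fold change was -0.0071 in MFI8 (SE 0.055, interval -0.13 to 0.12) and -0.0097 in MASM7 (SE 0.055, interval -0.13 to 0.11), the differences nearest to 0 among the 9 genes in those 2 comparisons.

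Zfas1, a host of box C/D snoRNAs of the Snord12 family, was at 88.4 and 76.9 CPM in Vehicle, 84.2 and 76.5 CPM in MASM7 and 81.4 and 81.7 CPM in MFI8. The 2 Vehicle libraries were farther apart than any of the group means. The log2 fold change was -0.02 in MFI8 (SE 0.077) and -0.04 in MASM7 (SE 0.076). Of the exonic bases of Zfas1, 82 are shared with the antisense gene Znfx1, and the library kit does not mark strand, so reads from these bases cannot be assigned to either gene.

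**Figure D2:**
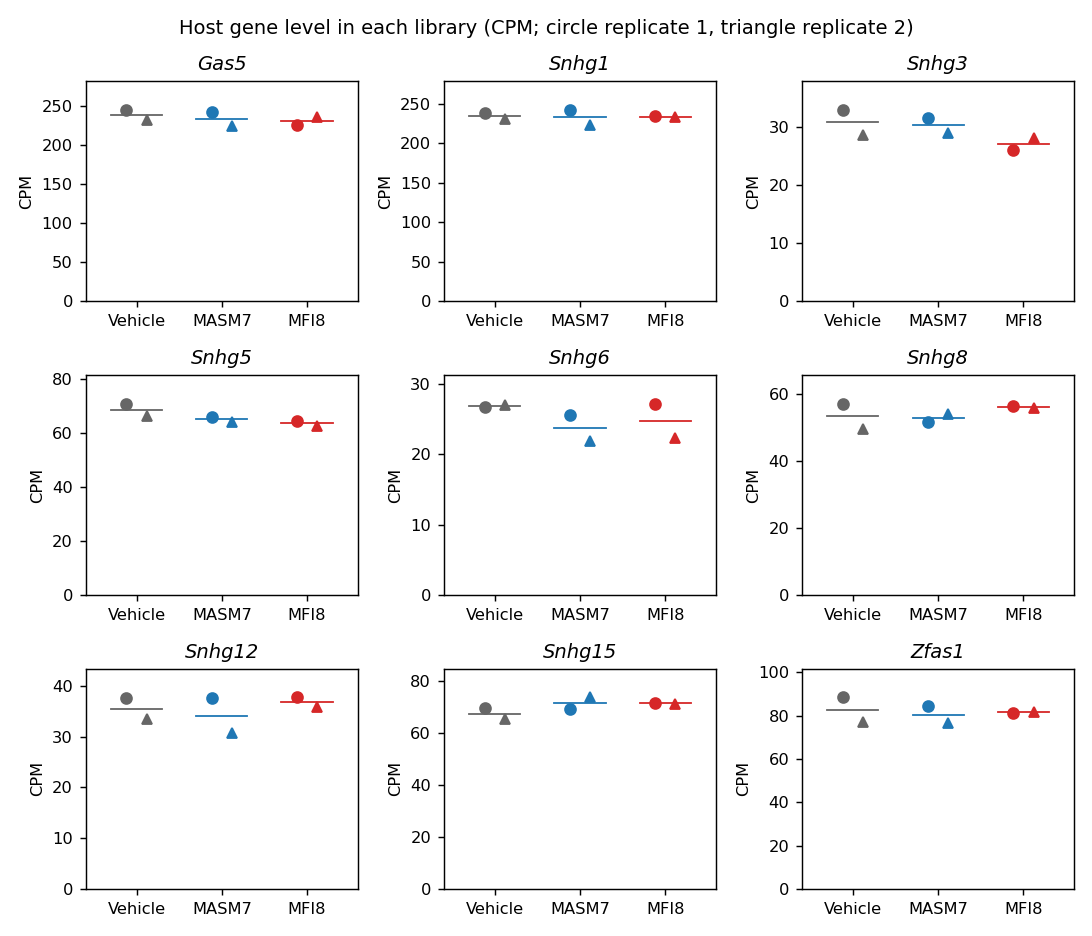
CPM after TMM scaling (vertical axes, each from 0) of each of the 9 host genes, with 1 point per library, circles for replicate 1, triangles for replicate 2 and a line at each group's mean. Both MFI8 libraries lay below both Vehicle libraries in Snhg3 and Snhg5 and above them in Snhg15, and the MFI8 and Vehicle libraries overlapped in the other 6 genes.

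Snhg3 had the lowest log2 fold change of the 9 in MFI8. It was at 33.0 and 28.7 CPM in Vehicle, 31.6 and 29.1 CPM in MASM7 and 26.1 and 28.2 CPM in MFI8. Both MFI8 libraries were below both libraries of either other group, and MFI8 replicate 2 was only just below Vehicle replicate 2. The log2 fold change of MFI8 against Vehicle was -0.18 (SE 0.092, interval -0.39 to 0.03, unadjusted p = 0.0792, adjusted p = 0.549 by edgeR) and did not pass the test. With single libraries left out it ran from -0.28 without Vehicle replicate 2 to -0.08 without Vehicle replicate 1. Of the 986 exonic bases of Snhg3, 135 are shared with Rcc1, a neighbour on the same strand, and 705 with the antisense gene Gm17300. Rcc1 had from 3701 to 5375 counts a library, Snhg3 from 599 to 934 and Gm17300 from 2 to 9. How reads from shared bases were counted is not given in the sources used here. The low counts of Gm17300 therefore do not show that the overlap left the Snhg3 counts unchanged.

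Snhg5, host of box C/D snoRNAs, was at 71.0 and 66.4 CPM in Vehicle, 66.0 and 64.3 CPM in MASM7 and 64.5 and 62.8 CPM in MFI8. Both libraries of either compound lay below both Vehicle libraries. The log2 fold change was -0.11 in MFI8 (SE 0.061, interval -0.25 to 0.03, adjusted p = 0.579 by edgeR) and -0.08 in MASM7 (SE 0.060, interval -0.21 to 0.06, adjusted p = 0.664), and neither passed. With single libraries left out, the MFI8 value ran from -0.16 without Vehicle replicate 2 to -0.06 without Vehicle replicate 1, and the MASM7 value from -0.12 to -0.03 without the same libraries.

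Snhg6, the host of Snord87, was at 26.7 and 27.0 CPM in Vehicle, 25.6 and 21.96 CPM in MASM7 and 27.2 and 22.3 CPM in MFI8. The MASM7 libraries lay below both Vehicle libraries, and the MFI8 libraries lay on either side of them. The log2 fold change was -0.18 in MASM7 (SE 0.11, interval -0.42 to 0.07, adjusted p = 0.586 by edgeR), the lowest of the 9 in that comparison, and -0.12 in MFI8 (SE 0.11, interval -0.37 to 0.12). The 2 libraries of each compound differed more from each other than the compound's mean differed from Vehicle. Without MASM7 replicate 1 the MASM7 value was -0.29, and without MASM7 replicate 2 it was -0.07. The MFI8 value was -0.27 without MFI8 replicate 1 and 0.02 without MFI8 replicate 2.

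Snhg8 and Snhg15 each host a single box H/ACA snoRNA locus in this annotation. Snhg8 was at 57.3 and 49.6 CPM in Vehicle, 51.8 and 54.2 CPM in MASM7 and 56.4 and 55.9 CPM in MFI8. Its compound libraries lay between the Vehicle libraries, with a log2 fold change of 0.07 in MFI8 (SE 0.076) and -0.01 in MASM7 (SE 0.076).

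Snhg15 was at 69.6 and 65.4 CPM in Vehicle, 69.4 and 73.8 CPM in MASM7 and 71.8 and 71.1 CPM in MFI8. It had the highest log2 fold change of the 9 in both compounds, at 0.08 in MFI8 (SE 0.062, interval -0.06 to 0.22, adjusted p = 0.687 by edgeR) and 0.09 in MASM7 (SE 0.062, interval -0.05 to 0.22, adjusted p = 0.630). Its MFI8 libraries were above both Vehicle libraries, while MASM7 replicate 1 lay between them. With single libraries left out, the value ran from 0.04 to 0.13 in either compound. It was 0.13 in both without Vehicle replicate 1, and the MASM7 value was also 0.13 without MASM7 replicate 1.

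Snhg12, which hosts snoRNAs of both classes, was at 37.5 and 33.4 CPM in Vehicle, 37.6 and 30.6 CPM in MASM7 and 37.7 and 35.8 CPM in MFI8. The Vehicle and compound libraries overlapped, and the log2 fold change was 0.05 in MFI8 (SE 0.10) and -0.05 in MASM7 (SE 0.10).

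Counted without a model, both MFI8 libraries lay above both Vehicle libraries in 1 of the 9 genes and below them in 2, where 20.9% of all genes tested lay above and 19.3% below. These shares were near the background.

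For MASM7 against Vehicle, the question is the same for activation of the mitofusins. None of the 9 genes passed the test and none was under an unadjusted p of 0.05 by edgeR or DESeq2, where 0% of all genes tested passed the edgeR test and 10.2% were under the unadjusted threshold. The DESeq2 shares were 0.00747% and 2.64% of 26760 genes, with no filter on low counts. With the replicate number as a block in edgeR, 554 genes passed, none of them a host gene. Snhg6 was then under an unadjusted p of 0.05, beside 19.9% of all genes. The log2 fold change was below 0 in 8 of the 9 genes, Snhg15 being the exception, with a median of -0.03 beside 0.00067 over all genes tested. No host gene had both MASM7 libraries above both Vehicle libraries (background 21.2%), and Snhg5 and Snhg6 had both below (background 21.6%). The highest upper bound of an interval was 0.22, for Snhg15, a 1.17-fold rise.

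The count of 8 depended on which libraries were kept. Replicate 1 was higher than replicate 2 in 8 of the 9 host genes in Vehicle, 7 in MASM7 and 6 in MFI8, where 50.1%, 48.5% and 49.2% of all genes tested were. The summed CPM of the 9 genes was 867 and 811 in Vehicle, 851 and 799 in MASM7 and 825 and 826 in MFI8, so that the spread within Vehicle and within MASM7 was wider than the differences between group means. Without Vehicle replicate 1, 7 of the 9 genes were above 0 in MASM7 and 5 in MFI8. Without Vehicle replicate 2, 1 was above 0 in each. Without MASM7 replicate 2, 6 were above 0 in MASM7, and the median over the 9 genes ran from -0.12 to 0.03 when single libraries were left out.

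**Figure D3:**
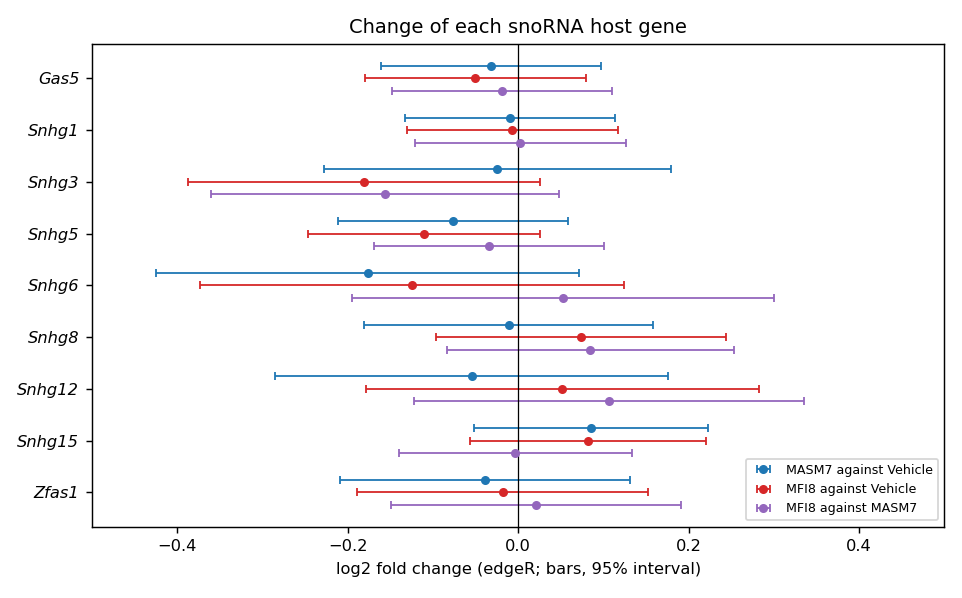
Log2 fold change (horizontal axis) of each of the 9 host genes for MASM7 against Vehicle, MFI8 against Vehicle and MFI8 against MASM7, with 95% intervals as bars and a line at 0. Every interval held 0, and the points lay between -0.18 and 0.11.

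The compounds were compared with each other at their different concentrations. In MFI8 against MASM7, none of the 9 genes passed the test or was under an unadjusted p of 0.05, by edgeR or DESeq2. Of all genes tested by edgeR, 0% passed and 7.18% were under the unadjusted threshold. The DESeq2 shares were 0.231% of the 12559 genes given an adjusted p and 1.9% of 26760 genes. With the replicate number as a block in edgeR, 439 genes passed, none of them a host gene. The median log2 fold change was 0.0026 beside -0.0015 over all genes. With single libraries left out, the median over the 9 genes ran from -0.052 to 0.052. Snhg3 was lower in both MFI8 libraries, at -0.16 (SE 0.091, interval -0.36 to 0.05), and Snhg8 higher in both, at 0.08 (SE 0.075, interval -0.08 to 0.25). Without MASM7 replicate 1 these values were -0.10 and 0.05, and without MASM7 replicate 2 they were -0.22 and 0.12. That is 1 gene in each direction, where 19.6% of all genes tested lay apart upward and 19.6% downward. These comparisons share libraries with those against Vehicle. In bulk RNA, fewer cells and less RNA per cell cannot be told apart.

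The 9 genes did not move as 1 block across the 6 libraries. Over the 36 pairs of host genes, Pearson's r of log2 CPM was positive in 27, with a median of 0.40 and a range of -0.61 to 0.90. The r of each gene with the mean of the other 8 ran from -0.29 for Snhg15 to 0.95 for Zfas1. The 5 genes whose pattern was most like the mean of the 9, among 6214 candidates, were Gpr107 (r = 0.99), Gpd2 (0.98), Arhgap42 (0.98), Atp2b1 (0.97) and Tgfbr3 (0.97). All of these r values are descriptions over 6 libraries, the same 6 that gave the host gene values.

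Further noncoding snoRNA hosts gave other values. Of a list of 13, 11 were tested. Of these, 9 were above 0 and 2 below in each compound, with a median log2 fold change of 0.15 in MFI8 and 0.16 in MASM7, and none passed the adjusted threshold by edgeR. Under an unadjusted p of 0.05 were 1 of the 11 in MFI8 (2410006H16Rik), beside 9.86% of all genes tested, and 4 in MASM7, beside 10.2%. The 4 were Snhg17, Epb41l4aos, Snhg18 and Snhg20, the last 2 named after their values were seen. Both compound libraries lay above both Vehicle libraries in 7 of the 11 in either compound, beside 20.9% of all genes tested in MFI8 and 21.2% in MASM7. The 2 comparisons share the Vehicle libraries, so their like counts are not independent. In MFI8 against MASM7, 3 of the 11 were above 0 and 8 below, with a median of -0.05. Values with single libraries left out were not read for this list. The difference between this list and the 9 host genes was not tested.

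2410006H16Rik was at 102 and 98.4 CPM in Vehicle, 104 and 104 CPM in MASM7 and 111 and 119 CPM in MFI8, with a log2 fold change of 0.19 in MFI8 (SE 0.057, unadjusted p = 0.00709, adjusted p = 0.361 by edgeR). Epb41l4aos was at 15.1 and 13.3 CPM in Vehicle, 17.1 and 17.0 CPM in MASM7 and 16.7 and 16.3 CPM in MFI8, with a log2 fold change of 0.27 in MASM7 (SE 0.098, adjusted p = 0.476) and 0.21 in MFI8 (SE 0.099, adjusted p = 0.518). Both genes were higher in every compound library than in either Vehicle library. Snhg17 was at 85.3 and 89.2 CPM in Vehicle and 98.5 and 97.2 CPM in MASM7, a log2 fold change of 0.16 (SE 0.061, adjusted p = 0.477), and at 90.4 and 98.9 CPM in MFI8. Dancr, Snhg10, Snhg18 and Snhg20, named after their values were seen, also had all compound libraries above both Vehicle libraries.

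The 40 protein-coding hosts, which carry snoRNAs in introns of genes such as those for ribosomal proteins, had medians of -0.01 in MFI8 and 0.02 in MASM7. Under an unadjusted p of 0.05 were 5 of the 40 in MFI8, all below 0, and 4 in MASM7, all above 0, counts near the 9.86% and 10.2% of all genes tested, and none passed the adjusted threshold by edgeR. The values with the smallest p were -0.15 for Dkc1 and -0.12 for Wdr43, a factor of small-subunit processing, in MFI8. In MASM7 they were 0.21 for Ppan, a ribosome biogenesis factor, and 0.15 for Nop56. Both MASM7 libraries lay above both Vehicle libraries in 15 of the 40 and below them in 5 (background 21.2% and 21.6%). For MFI8 these counts were 3 and 10 (background 20.9% and 19.3%). MFI8 against MASM7 was below 0 in 38 of the 40, beside 7219 of the 14290 genes tested, with a median of -0.04. In that comparison 5 of the 40, all lower, were under an unadjusted p of 0.05 (background 7.18%), and 21 had both MFI8 libraries below both MASM7 libraries (background 19.6%).

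The machinery on either side of the hosts was read in the same way. Of 19 nonsense-mediated decay factors, 11 were above 0 in MFI8 (median 0.02) and 8 in MASM7 (median -0.0064), with 4 and 3 of the 19 under an unadjusted p of 0.05, beside 9.86% and 10.2% of all genes tested. Smg1, the kinase that phosphorylates Upf1, was 0.20 and Upf3b -0.20 in MFI8, and Upf2 was -0.19 and Magoh, of the exon junction complex, -0.16 in MASM7, all as log2 fold changes. Of 18 snoRNP proteins and assembly factors, 9 were above 0 in MFI8 (median -0.0014) and 13 in MASM7 (median 0.06), with 3 and 6 of the 18 under an unadjusted p of 0.05, beside the same 9.86% and 10.2%. Naf1, an assembly factor of box H/ACA particles, was -0.17 and Dkc1, their pseudouridine synthase, -0.15 in MFI8, while Nhp2 was 0.16 and Nop56, a core box C/D protein, 0.15 in MASM7. Both MASM7 libraries lay above both Vehicle libraries in 10 of the 18 (background 21.2%). MFI8 against MASM7 was below 0 in 13 of the 18 (median -0.08), with both MFI8 libraries below both MASM7 libraries in 12 (background 19.6%). None of these genes passed the adjusted threshold by edgeR, and Dkc1 and Nop56 are also hosts in the list before.

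Noncoding RNAs listed as nuclear-retained are a contrast of another kind. Whether each of them is translated was not examined. Of 8 in the list, 4 were tested, with medians of 0.25 in MFI8 and 0.13 in MASM7. Under an unadjusted p of 0.05 were 2 of the 4 in MFI8 and 3 in MASM7, beside 9.86% and 10.2% of all genes tested, and none passed the adjusted threshold by edgeR. Malat1, a nuclear speckle RNA, was at 346 and 340 CPM in Vehicle, 401 and 385 CPM in MASM7 and 457 and 397 CPM in MFI8. All 4 compound libraries were above both Vehicle libraries, at a log2 fold change of 0.32 in MFI8 (SE 0.067, unadjusted p = 8.8e-04, adjusted p = 0.248 by edgeR) and 0.20 in MASM7 (SE 0.067, adjusted p = 0.473). Kcnq1ot1 was 0.26 in MFI8 (adjusted p = 0.437) and Tug1 -0.19 in MASM7 (adjusted p = 0.468). Tug1 was also below both Vehicle libraries in MFI8, at -0.06 (adjusted p = 0.731 by edgeR).

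**Figure D4:**
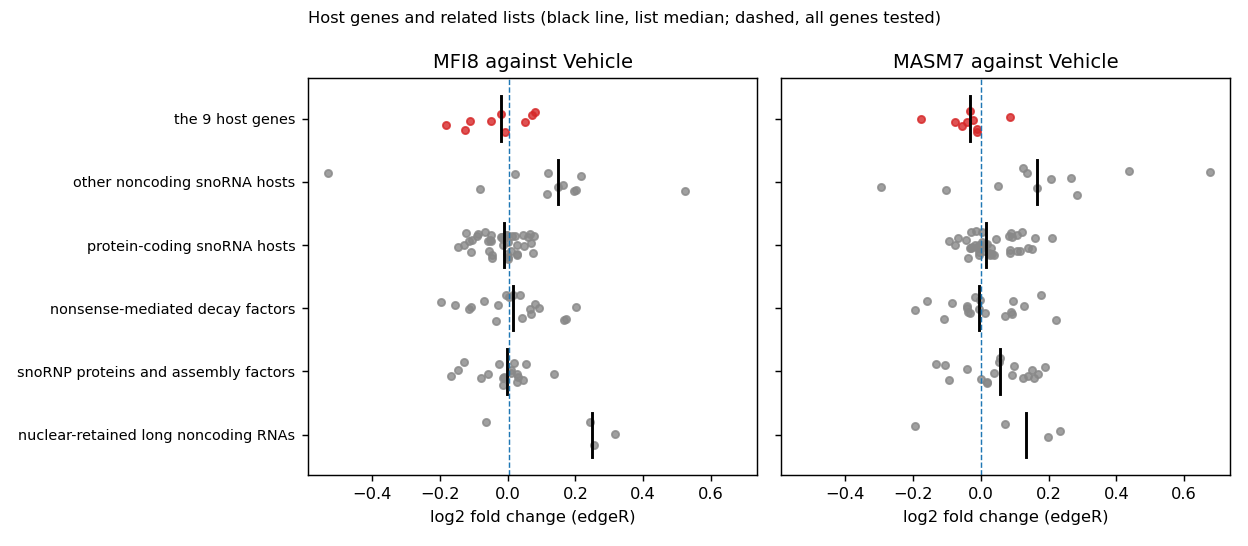
Log2 fold change against Vehicle (horizontal axis) for MFI8 on the left and MASM7 on the right, with 1 point per gene for the 9 host genes and the 5 related lists, a black line at each list's median and a dashed line at the median of all genes tested. The 9 host genes had medians of -0.018 and -0.03 and the other noncoding hosts 0.15 and 0.16, the black lines to the left and right of the dashed line.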

How the data were processed

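Per the labels and the study's methods, the authors trimmed reads with Trimmomatic, aligned them to mm10/GRCm38 with STAR and counted exonic reads per gene with featureCounts; the annotation release was not given in the sources used here. The deposited raw counts per gene were tested. The deposited TPM values (counts per gene length, scaled to the same sum in each library by the authors) were used only for levels. The authors' normalized counts were not used.

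Counts were fitted over all 6 libraries with edgeR 4.0.16 in R 4.3.3 (TMM scaling, filterByExpr, glmQLFit and glmQLFTest, no block), with Benjamini-Hochberg adjustment over the 14290 genes tested and a threshold of 0.05. DESeq2 1.42.0 was an alternative. CPM use TMM-scaled library sizes. Intervals are 95% and come from the residual and prior degrees of freedom. Code was tested on simulated data. With 2 libraries a group, no exact test of a single gene can go below p = 0.333.

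The host genes and lists were chosen with earlier results of these data known. Named genes were all 9 host genes, the 2 genes of each list with the smallest p in each comparison against Vehicle, and the 5 most alike in pattern. Snhg7, of the list of other hosts, was not matched in the table and was not analysed here. Alternatives were the scaling, the filter on low counts, DESeq2, fitting 2 groups only, a replicate block and leaving out each library. They were read for the 9 host genes and for all genes. Values of the related lists come only from the main fit, without a block.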

Additional observations from a re-analysis of the deposited data

How the results depend on the processing

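No host gene passed the adjusted threshold under any of the alternatives run, in any of the 3 comparisons. Of 189 host gene values under other settings, 181 kept their direction and 8 reversed, all of them small. With library size alone as the scaling, the reversed log2 fold changes were 0.0037 for Snhg1 in MFI8 against Vehicle, and 0.0031 for Gas5 and 0.018 for Snhg15 in MFI8 against MASM7. With no filter beyond 1 count they were 0.00043 for Snhg1 in MFI8, 0.010 for Snhg1 and 0.0089 for Snhg8 in MASM7, and -0.0096 for Snhg1 between the compounds, and with at least 10 counts in every library -0.0037 for Snhg1 between the compounds. The cause was not tested.

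The count of all genes that passed, 0 in each comparison by edgeR with the filter, was 256, 127 and 168 (MFI8, MASM7 and MFI8 against MASM7) with no filter beyond 1 count, and 48, 2 and 29 by DESeq2. In fits of only the 2 groups compared, 1 gene passed in MASM7 and 2 between the compounds. When single libraries were left out, it ran from 0 to 26, 0 to 2 and 0 to 24, with the highest values without MFI8 replicate 1 for MFI8 and for the compounds. The cause was not tested.

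Replicate numbers are shared between groups, but no source says that a number marks a shared day or batch, and the deviations of same-numbered libraries correlated at 0.188, 0.152 and 0.165 over genes. With the replicate block, 720, 554 and 439 genes passed in the 3 comparisons. The smallest adjusted p of a host gene was then 0.208, 0.187 and 0.330, so none was called. Under an unadjusted p of 0.05 with this block were Snhg3 in MFI8 (log2 fold change -0.17) and Snhg6 in MASM7 (-0.18), beside 18.6% and 19.9% of all genes. Between libraries of the same number, MASM7 was above Vehicle in 2 of the 9 host genes (median -0.063) for replicate 1 and 3 (median -0.047) for replicate 2, and MFI8 in 3 (median -0.025) and 6 (median 0.020).

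Leaving out each library in turn reversed 26 of 108 host gene values. In MFI8 against Vehicle the log2 fold change ran from -0.029 to 0.017 for Snhg1, -0.27 to 0.019 for Snhg6, -0.028 to 0.18 for Snhg8, -0.031 to 0.14 for Snhg12 and -0.12 to 0.087 for Zfas1, and the median over the 9 genes from -0.088 to 0.017. In MASM7 against Vehicle it ran from -0.086 to 0.021 for Gas5, -0.069 to 0.048 for Snhg1, -0.12 to 0.079 for Snhg3, -0.11 to 0.096 for Snhg8, -0.21 to 0.087 for Snhg12 and -0.14 to 0.064 for Zfas1, and the median from -0.12 to 0.031. In MFI8 against MASM7 it ran from -0.071 to 0.037 for Gas5, -0.055 to 0.063 for Snhg1, -0.092 to 0.20 for Snhg6, -0.035 to 0.26 for Snhg12, -0.047 to 0.042 for Snhg15 and -0.046 to 0.092 for Zfas1. An unadjusted p under 0.05 by edgeR was reached by 1 host gene in each of 4 of these fits, Snhg8 (0.18, without Vehicle replicate 1), Snhg3 (-0.28, without Vehicle replicate 2) and Snhg6 (-0.27, without MFI8 replicate 1) in MFI8 against Vehicle, and Snhg12 (0.26, without MASM7 replicate 1) between the compounds, beside 10.6%, 7.51%, 8.61% and 5.78% of all genes in those fits. A group left with 1 library was assumed to vary like the others. Each host gene had at least 599 counts in every library.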
